A study of Mus musculus with 36 samples.

Results

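The SLC22 genes Slc22a6, Slc22a8, Slc22a7, Slc22a12, Slc22a26, Slc22a2 and Slc22a5, which encode organic anion and cation transporters, were followed in mouse kidneys after 5 diets. They were taken as every probe set whose single gene symbol was one of these 7 genes, which gave 12 probe sets of the 45141 on the array. All 7 genes were measured, Slc22a7 and Slc22a2 by 1 probe set and the other 5 by 2 probe sets each. A gene is described by its brightest probe set, the one with the highest mean over all arrays, and the other probe set is given where it differed.

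Total RNA of whole kidneys of male C57BL/6 mice, 10 to 12 weeks old at the start, was hybridised to 36 Affymetrix arrays (type HT MG-430 PM), each from another mouse. Every mouse first ate the standard SDS chow for 7 days. Mice were then fasted for 3 days (n = 4), received 30% dietary restriction (30%DR) of SDS chow for 2 weeks (n = 5), or had free access for 3 days to a protein-free (n = 5), a carbohydrate-free (CHO-free, n = 5) or a fat-free diet (n = 4). Their controls had free access to SDS chow in the fasting cohort (n = 5), to SDS chow in the DR cohort (n = 3) or to the Control diet (n = 5). The Control diet differs from SDS chow in its protein source and also in its carbohydrate, fat and fiber contents. The labels speak of 4 SDS mice in the DR cohort, and 3 were used here. The fasting experiment was run, and its arrays were normalized, apart from the rest, so a level after fasting may only be set against the SDS mice of the same cohort. The protein-free, CHO-free and fat-free diets share the 5 Control mice. The mice lived 3 to 4 to a cage, no label ties a mouse to its cage, and the p-values measure the spread between mice.

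SLC22 proteins are membrane transporters that are typical of the proximal tubule of the kidney. OAT1 and OAT3 take organic anions such as drugs, uremic toxins and metabolites up from the blood in exchange for dicarboxylates, OCT2 takes up organic cations, and efflux pumps of the luminal membrane then pass the solutes to the urine. Other members work in reabsorption: URAT1 returns urate and OCTN2 returns carnitine, the carrier of fatty acids into mitochondria.

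By the RefSeq annotation of build GRCm38.p6, 4 of the 7 genes lie on chromosome 19. Slc22a6, the gene of OAT1, spans 8617996 to 8628299 and its neighbour Slc22a8, the gene of OAT3, spans 8591254 to 8611835. Slc22a26, a rodent gene of the organic anion branch, spans 7780094 to 7802667 in a stretch that also holds Slc22a19, Slc22a27 and Slc22a30. Slc22a12, the gene of URAT1, spans 6535854 to 6543070. Slc22a2, the gene of OCT2, lies on chromosome 17 from 12584189 to 12628489, Slc22a7, the gene of OAT2, on chromosome 17 from 46432185 to 46438477, and Slc22a5, the gene of OCTN2, on chromosome 11 from 53864542 to 53891796.

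The promoters of 6 of the 7 genes were in the RefSeq table of GRCm38.p6, each as 250 bases before to 50 bases after the start of the gene. They were read on both strands for 3 motifs of factors that act on transporter genes. The HNF1 half-site GTTAAT was found in the windows of Slc22a6 and Slc22a8, and it is held by 7.1% of all 32851 promoters in the table. The HNF4 core AAGTCCA, held by 4.17% of promoters, and the nuclear receptor half-site AGGTCA, held by 16.3%, were in none of the 6 windows. The half-site began 56 bases before the start in Slc22a6 and 81 bases before it in Slc22a8. The windows of these neighbouring genes are shown with that of Slc22a26, the member with the largest difference between diets of the second cohort, and capitals mark GTTAAT.
Slc22a6, chr19:8617746-8618045, plus strand: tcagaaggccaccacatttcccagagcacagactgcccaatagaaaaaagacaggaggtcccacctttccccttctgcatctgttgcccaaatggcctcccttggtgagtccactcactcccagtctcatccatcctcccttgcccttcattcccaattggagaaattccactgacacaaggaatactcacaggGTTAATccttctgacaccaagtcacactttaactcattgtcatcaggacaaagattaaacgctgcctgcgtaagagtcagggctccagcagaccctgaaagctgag
Slc22a8, chr19:8592932-8593231, plus strand: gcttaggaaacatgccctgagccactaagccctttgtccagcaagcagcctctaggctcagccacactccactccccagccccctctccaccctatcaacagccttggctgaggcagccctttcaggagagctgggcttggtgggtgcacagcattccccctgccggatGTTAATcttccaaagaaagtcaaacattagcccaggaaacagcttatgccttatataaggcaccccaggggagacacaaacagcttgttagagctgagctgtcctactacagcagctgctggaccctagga
Slc22a26, chr19:7802618-7802917, minus strand: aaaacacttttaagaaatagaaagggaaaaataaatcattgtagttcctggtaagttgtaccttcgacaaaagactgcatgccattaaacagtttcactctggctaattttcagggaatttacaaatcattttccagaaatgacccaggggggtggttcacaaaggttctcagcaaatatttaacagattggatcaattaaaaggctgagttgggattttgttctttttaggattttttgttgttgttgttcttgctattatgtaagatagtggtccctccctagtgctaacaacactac
The window of Slc22a26 held none of the 3 motifs. The start used for Slc22a8 lies inside the annotated span of the gene. These matches describe letters and were not tested against the expression values.

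All values below are log2 values of the robust multi-array average (RMA), so a difference of 1 is a 2-fold change in signal. Array medians ran from 4.15 to 4.21 for the fasting cohort, and from 3.62 to 3.76 for all other arrays. The lowest correlation between arrays of a group was 0.984, in the CHO-free mice. Of 15 listed proximal tubule markers 12 were measured, and their mean level per array lay between 10.0 and 10.6, far above the array median. The array's 2 Gapdh control probe sets, at the 3 prime and the 5 prime end of the transcript, differed by 1.85 ± 0.62 in CHO-free mice and by 0.82 ± 0.14 in Control mice (SD, n = 5 each), and the difference passed an exact permutation test (2-sided, p = 0.00794, adjusted p = 0.0476 over 6 comparisons). In the other 5 comparisons the adjusted p of this measure of RNA integrity lay between 0.143 and 0.714. In whole tissue, fewer cells of a type and less RNA per cell cannot be told apart.

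Calls required 1.5-fold or more and an adjusted p in limma under 0.05, where the Benjamini-Hochberg adjustment ran over the whole array. After fasting 5 of the 12 probe sets were called, 2 higher and 3 lower, against a share of 5.31% over all 45141 probe sets (2.63% higher and 2.68% lower). With 30%DR 3 of 12 were called, 1 higher and 2 lower, against 0.919% of all probe sets (0.47% higher and 0.45% lower). On the protein-free diet 3 of 12 were called, all higher, against 0.738% of all (0.45% higher). By brightest probe set, 3 of the 7 genes were called after fasting, 1 with 30%DR and 1 on the protein-free diet. Both probe sets of Slc22a26 were among the calls on each of these diets. The CHO-free diet gave 3 calls, 2 higher and 1 lower, none of them the brightest probe set of its gene, against 3.6% of all (1.35% higher and 2.25% lower). On the fat-free diet none of the 12 was called, against 0% of all, and 3 of the 12 had an unadjusted p under 0.05, as had 2089 of all probe sets. The Control diet against SDS chow gave none of 12, against 0.0465% of all, with 1 of the 12 at an unadjusted p under 0.05. The median log2 fold change of the 12 probe sets was -0.05 after fasting, -0.23 with 30%DR, 0.02 on the protein-free, -0.22 on the CHO-free and -0.02 on the fat-free diet, where the median over all probe sets was at most 0.03.

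**Figure D1:**
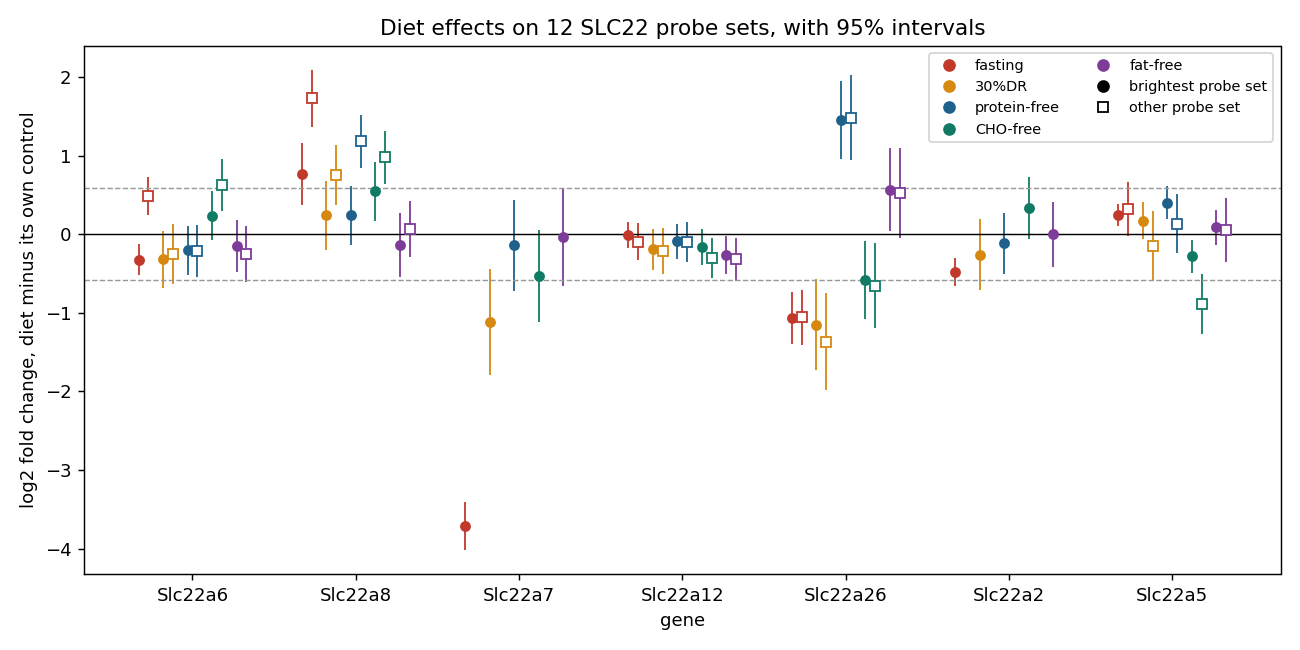
Log2 fold change of each of the 12 SLC22 probe sets after each diet against its own control (y axis) by gene (x axis), with 95% intervals from limma. Filled circles are the brightest probe sets, open squares the other ones, and the dashed lines mark 1.5-fold. Slc22a7 stood at -3.71 after fasting, and Slc22a26 lay below 0 after fasting, 30%DR and the CHO-free diet and at 1.45 on the protein-free diet.

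Among the organic anion transporters, Slc22a7 had the largest change, after fasting. OAT2, its product, carries organic anions and cyclic nucleotides. In fasted mice Slc22a7 (1451460_PM_a_at) had log2 values of 6.78, 7.47, 7.02 and 6.74, against 10.57, 10.78, 10.64, 10.97 and 10.62 in SDS mice of the fasting cohort. Every fasted mouse lay far below every SDS mouse. In 8.58% of all probe sets the fasted mice lay below the SDS mice without overlap, by any distance. The fold change of Slc22a7 was -3.71 on the log2 scale (SE 0.14, 95% interval -4.02 to -3.41), a 13.1-fold lower signal, with an adjusted p of 8.28e-08 in limma. It lay between -3.87 and -3.63 when each array was left out in turn.

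With 30%DR the 5 mice differed from each other in Slc22a7. The values were 8.07, 10.12, 9.22, 10.31 and 10.16 in 30%DR mice 1 to 5, against 10.35, 10.80 and 10.94 in SDS mice of the DR cohort. All 5 restricted mice lay below the 3 SDS mice, as in 4.07% of all probe sets, but mice 2, 4 and 5 did so by little and mice 1 and 3 by much more. The mean difference in Slc22a7 was -1.12 (SE 0.33), with an adjusted p of 0.0871, so it was not called. It was called with SDS and Control mice joined as the control (-1.14, adjusted p = 0.00449) and without 30%DR mouse 4 (-1.30, adjusted p = 0.0421), and without mouse 1 it was -0.74.

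The macronutrient-free diets gave smaller differences in Slc22a7. CHO-free mice had 10.45, 10.19, 10.50, 10.48 and 9.40, and Control mice had 10.91, 10.83, 10.84, 10.65 and 10.45. The lowest value was that of CHO-free mouse 5, the other 4 overlapped with the lowest Control mouse or lay just below it, and the difference of -0.53 was not called (95% interval -1.12 to 0.05, adjusted p = 0.254). On the protein-free diet the difference in Slc22a7 was -0.14 (95% interval -0.72 to 0.44) and on the fat-free diet it was -0.04 (95% interval -0.65 to 0.58), neither of them called. The change after fasting differed from that of each other diet in limma's test of the difference itself. The difference was -2.59 from 30%DR (adjusted p = 0.000153) and -3.57 from the protein-free diet (adjusted p = 1.87e-07). It was -3.18 from the CHO-free (adjusted p = 1.22e-06) and -3.68 from the fat-free diet (adjusted p = 1.04e-07). Fasting was run in its own cohort, so diet and cohort cannot be told apart in these differences. The control chow differed too, except against 30%DR.

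**Figure D2:**
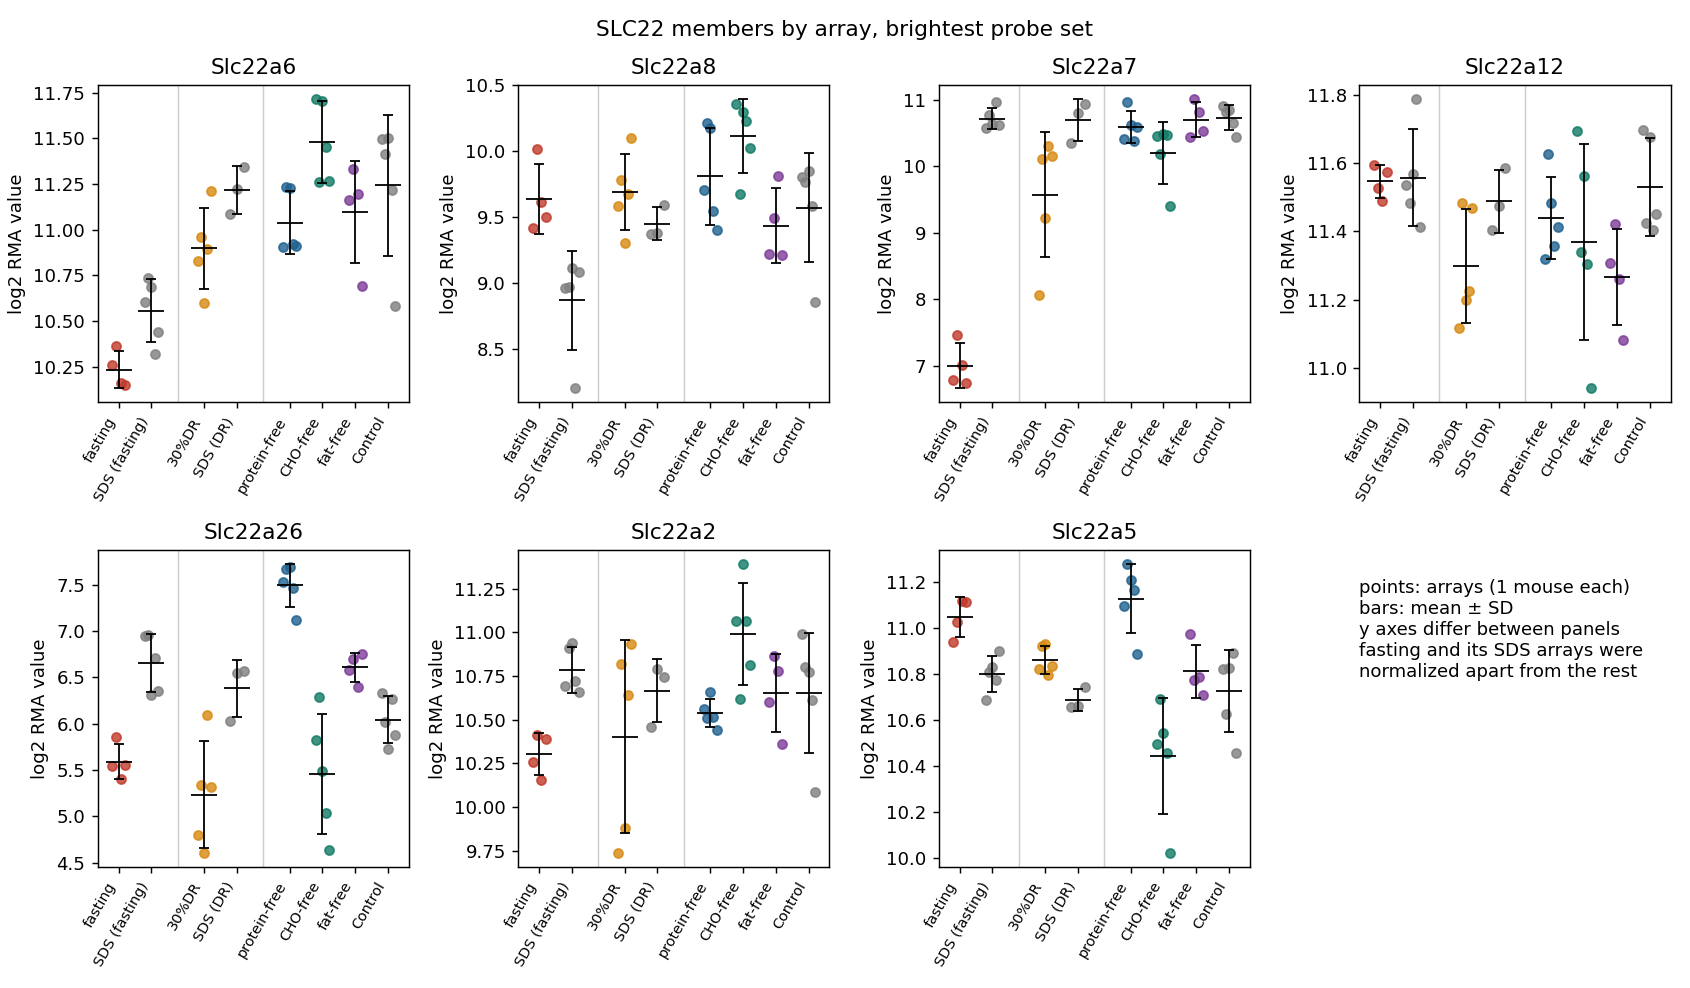
Log2 RMA values (y axes, which differ between panels) of the brightest probe set of the 7 genes by group (x axes), with each diet left of its control. Points are arrays, 1 mouse each, and bars show mean ± SD. The 4 fasted mice lie between 6.74 and 7.47 in Slc22a7, and the 5 protein-free mice lie between 7.12 and 7.69 in Slc22a26, above all Control mice.

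Slc22a26 was called higher on 1 diet and lower on 2 others. On the protein-free diet its brightest probe set (1425751_PM_at) had 7.53, 7.66, 7.69, 7.46 and 7.12, against 6.33, 6.01, 5.73, 6.26 and 5.87 in Control mice. All protein-free mice lay above all Control mice, as in 1.97% of all probe sets. Slc22a26 rose 2.73-fold on this diet (log2 fold change 1.45, SE 0.24, adjusted p = 0.00123 in limma). Its other probe set (1425752_PM_at) had values of 7.38 to 7.70 in protein-free mice and 5.43 to 6.40 in Control mice and gave 1.49 (adjusted p = 0.00198).

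After fasting Slc22a26 fell. It had 5.54, 5.86, 5.40 and 5.56 in fasted mice, against 6.94, 6.96, 6.30, 6.71 and 6.35 in SDS mice of that cohort. The fasted mice lay below every SDS mouse, as in 8.58% of all probe sets. The log2 fold change was -1.06 (SE 0.15, adjusted p = 0.000476), and it was -1.06 in the other probe set too (adjusted p = 0.000769).

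With 30%DR the values of Slc22a26 were 4.80, 5.34, 4.61, 6.09 and 5.32, against 6.02, 6.55 and 6.57 in SDS mice of the DR cohort. In this brightest probe set the groups overlapped through 30%DR mouse 4, and the lowest values were those of mice 1 and 3. The log2 fold change was -1.15 (SE 0.28, adjusted p = 0.0321), and -1.37 in the other probe set (adjusted p = 0.017), so Slc22a26 was called as lower. In the other probe set 30%DR mice 1 to 5 had 4.24, 4.57, 4.90, 6.05 and 5.37, with mice 1 and 2 lowest. The other probe set was not called in the fit of the 2 groups alone (adjusted p = 0.106), with a covariate of adipocyte markers (adjusted p = 0.0645) or without SDS mouse 2 (-1.14, adjusted p = 0.172) or 3 (-1.38, adjusted p = 0.0719). The brightest probe set was not called in a fit of the 2 groups alone (adjusted p = 0.0932), nor without SDS mouse 2 (-1.06, adjusted p = 0.193), SDS mouse 3 (-1.06, adjusted p = 0.169), or 30%DR mouse 1 (-1.04, adjusted p = 0.0745), 3 (-0.99, adjusted p = 0.0875) or 5 (-1.17, adjusted p = 0.0519). The mean of the 3 adipocyte markers measured of 5 listed lay between 6.42 and 6.79 in 30%DR mice and between 6.95 and 7.65 in SDS mice. With that mean as a covariate Slc22a26 gave -1.08 (adjusted p = 0.144).

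In CHO-free mice Slc22a26 had 5.83, 6.29, 5.49, 5.03 and 4.63, against the 5.73 to 6.33 of Control mice. CHO-free mice 3, 4 and 5 lay below the Control mice and mice 1 and 2 among them, and the difference of -0.58 was not called (adjusted p = 0.126). Without CHO-free mouse 2 it was -0.79 and called (adjusted p = 0.0198), and without CHO-free mouse 5 it was -0.38 (adjusted p = 0.328). On the fat-free diet the values were 6.58, 6.69, 6.39 and 6.75, all just above those of the Control mice, as in 1% of all probe sets. That difference of 0.57 was not called (95% interval 0.04 to 1.09, adjusted p = 0.998).

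The differences between diets were tested as well, and those with fasting cannot be told apart from a difference between the cohorts. In Slc22a26 the protein-free change exceeded the CHO-free change by 2.04 (SE 0.23, adjusted p = 1.67e-07). The change after fasting differed from the protein-free change by -2.52 (adjusted p = 8.24e-06) and from the fat-free change by -1.63 (adjusted p = 0.00265). The 30%DR change differed from the protein-free change by -2.60 (adjusted p = 0.00029) and from the fat-free change by -1.71 (adjusted p = 0.037). Against the macronutrient-free diets, fasting and 30%DR had another control chow, and 30%DR another duration (2 weeks against 3 days). These cannot be told apart from the diet. The difference of -1.71 was no longer called in 11 of 19 alternatives, which were the fit of the 27 arrays alone (adjusted p = 0.087) and the fits without SDS mouse 2 or 3, 30%DR mouse 1 or 3, Control mouse 1, 2 or 5, or fat-free mouse 1, 2 or 4. It stayed between -1.93 and -1.56, with an adjusted p of at most 0.139. The CHO-free change differed from the fat-free change by -1.15 (adjusted p = 0.00409). Slc22a26 belongs to a cluster of close relatives, so how far each probe set reads a single gene is not settled by these files.

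Over the 10 pairs of the 5 diets, the number of the 12 probe sets whose change differed was 2 for fasting against 30%DR (2.24% of all probe sets), 3 for fasting against protein-free (2.33%), 2 for fasting against CHO-free (2.84%) and 4 for fasting against fat-free (3.33%). It was 2 for 30%DR against protein-free (0.0665%), 0 for 30%DR against CHO-free (0.959%) and 2 for 30%DR against fat-free (0.162%). For protein-free against CHO-free it was 5 (2.7%), for protein-free against fat-free 1 (0.337%) and for CHO-free against fat-free 6 (1.73%). In the pairs with fasting, diet and cohort cannot be told apart. Against the macronutrient-free diets, fasting and 30%DR also had another control chow, and 30%DR another duration.

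The restricted mice also differed from each other in other members. In 30%DR mice 1 to 5 Slc22a2 had 9.74, 10.82, 9.88, 10.64 and 10.93, and Slc22a6 had 10.83, 10.96, 10.60, 10.89 and 11.21. In the brightest probe sets the lowest of the 5 was mouse 1 in Slc22a7, Slc22a2 and Slc22a12 and mouse 3 in Slc22a26, Slc22a6 and Slc22a8. In Slc22a5 the 5 mice lay close together, between 10.79 in mouse 4 and 10.93 in mouse 3. In the same order the difference between the 3 prime and 5 prime Gapdh probe sets was 1.04, 2.22, 1.15, 1.89 and 1.66. The part of RNA integrity in this spread was not tested. Over all 36 arrays, after subtraction of each group's mean, Slc22a7 and Slc22a2 had a Pearson correlation of 0.74, Slc22a6 and Slc22a2 of 0.76 and Slc22a6 and Slc22a8 of 0.83, given as descriptions over arrays that share RNA and hybridisation.

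**Figure D3:**
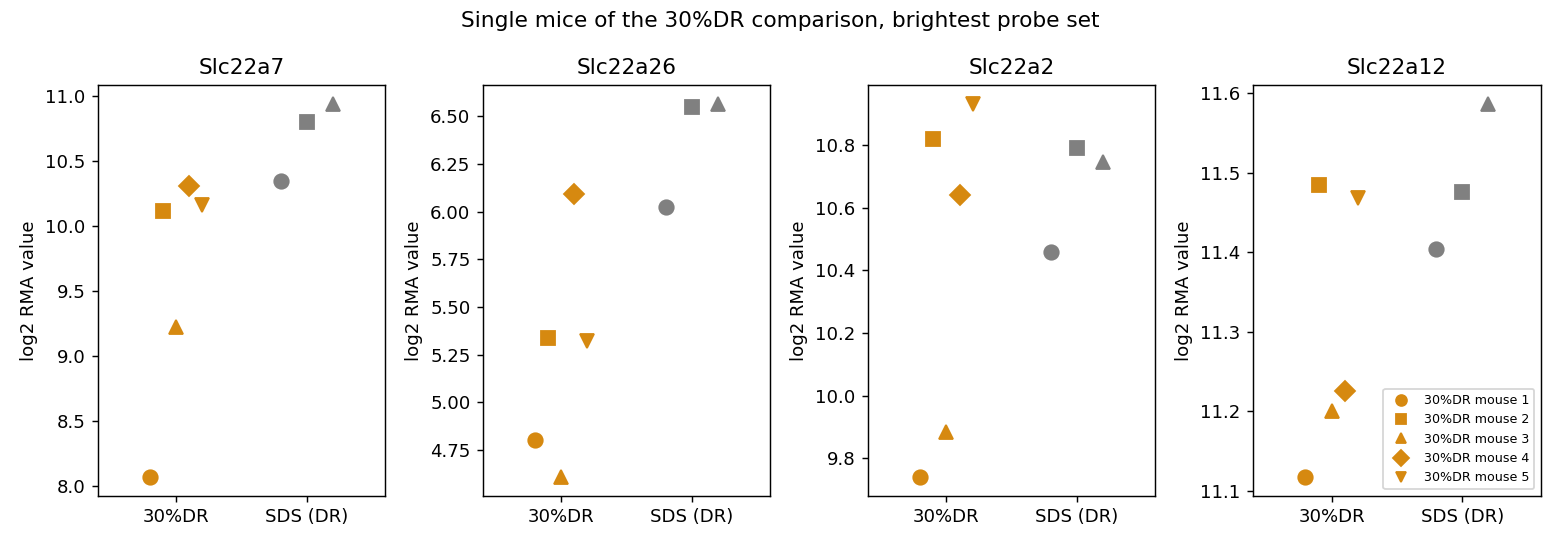
Log2 RMA values (y axes, which differ between panels) of Slc22a7, Slc22a26, Slc22a2 and Slc22a12 in the 5 30%DR mice, left, and the 3 SDS mice of the DR cohort, right, with 1 symbol for each restricted mouse. Mice 1 (circle) and 3 (upward triangle) have the lowest values in Slc22a7, at 8.07 and 9.22.

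Slc22a8, the gene of OAT3, which takes up steroid conjugates and many drugs, was higher after several diets in its dimmer probe set (1435418_PM_at). Fasted mice had 9.21, 9.71, 8.95 and 9.03, against 7.30, 7.42, 7.74, 7.22 and 7.80 in SDS mice of that cohort. The 30%DR mice had 7.88, 8.08, 8.04, 7.76 and 7.995, against 7.21, 7.02 and 7.36 in SDS mice of the DR cohort. In both comparisons every diet mouse lay above every control mouse, as in 8.63% of all probe sets after fasting and in 4.35% with 30%DR. The log2 fold change was 1.73 after fasting (SE 0.16, adjusted p = 3.19e-05) and 0.76 with 30%DR (SE 0.19, adjusted p = 0.0362). The 30%DR call of this probe set was lost in 8 of 18 alternatives, with the adipocyte covariate (0.75, adjusted p = 0.122) and without any 1 of the 3 SDS mice or of 30%DR mice 1, 2, 3 and 5, where the change stayed at 0.67 or more and the adjusted p at 0.237 or less.

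The same probe set of Slc22a8 had 8.23, 8.10, 8.16, 8.09 and 7.63 in protein-free mice, 8.09, 7.26, 7.65, 8.31 and 7.87 in CHO-free mice and 7.00, 7.21, 6.85, 6.76 and 6.46 in Control mice. Both diets lay above the Control mice without overlap, as did 1.97% of all probe sets on the protein-free and 3.02% on the CHO-free diet. The changes were 1.18 on the protein-free diet (SE 0.16, adjusted p = 0.000131) and 0.98 on the CHO-free diet (SE 0.16, adjusted p = 0.000362). On the fat-free diet the values were 7.32, 6.61, 7.03 and 6.76, among those of the Control mice, and the difference was 0.07 (95% interval -0.29 to 0.42). Once the Gapdh difference entered the model as a covariate, the CHO-free change was 0.67 (adjusted p = 0.0594) and no longer called, while the protein-free change was 1.03 (adjusted p = 0.000367) and still called.

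The brightest probe set of Slc22a8 (1416966_PM_at) showed smaller differences. It had 9.42, 10.02, 9.62 and 9.50 in fasted mice, against 8.97, 8.98, 9.12, 8.21 and 9.09 in SDS mice of that cohort. The groups again did not overlap, as in 8.63% of all probe sets. Slc22a8 rose 1.7-fold there (log2 fold change 0.77, SE 0.18, adjusted p = 0.0118), and without the SDS mouse at 8.21 it was 0.60 (adjusted p = 0.00545). On the CHO-free diet the brightest probe set gave 0.54 (adjusted p = 0.0596), not called, and it was called without CHO-free mouse 2 (0.65, adjusted p = 0.0193) or without Control mouse 1 (0.60, adjusted p = 0.0485). It was 0.37 without Control mouse 5, which had the lowest value of its group (adjusted p = 0.203), and 0.42 with the Gapdh covariate (adjusted p = 0.535). With 30%DR and on the protein-free diet it gave 0.24 in each (adjusted p = 0.736 and 0.664, and 0.06 on the protein-free diet without Control mouse 5), and on the fat-free diet -0.14 (adjusted p = 0.998). The CHO-free change of this probe set exceeded the fat-free change by 0.68 (SE 0.20, adjusted p = 0.043). That difference was no longer called in 8 of 11 alternatives, in the fit of the 27 arrays alone (adjusted p = 0.0581), with the Gapdh covariate (adjusted p = 0.14), and without CHO-free mouse 1, 3 or 4 or fat-free mouse 1, 2 or 4.

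The 2 probe sets of a gene did not always move together. For Slc22a6, whose product OAT1 is the classical transporter of para-aminohippurate, they went opposite ways after fasting. The brightest probe set (1417072_PM_at) had 10.26, 10.36, 10.16 and 10.15 in fasted mice, against 10.60, 10.73, 10.69, 10.32 and 10.44 in SDS mice, and gave -0.32 (adjusted p = 0.0272). The other one (1438332_PM_at) had 9.01, 9.13, 8.86 and 8.79 in fasted mice, against 8.24, 8.59, 8.74, 8.28 and 8.42 in SDS mice, and gave 0.49 (adjusted p = 0.00848). Both were under 1.5-fold and were not called, and no direction is given for Slc22a6 after fasting.

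The dimmer probe set of Slc22a6 in CHO-free mice had 9.56, 8.74, 9.21, 9.38 and 9.27, against 8.79, 8.52, 8.71, 8.72 and 8.30 in Control mice. CHO-free mouse 2 overlapped with the Control mice and the other 4 lay above them, and the probe set was called at 0.62 (SE 0.16, adjusted p = 0.0133). It lay under 1.5-fold without Control mouse 5 (0.55), without CHO-free mouse 1 (0.54) and with the array medians subtracted (0.58). With the Gapdh difference as a covariate it gave 0.32 (adjusted p = 0.535). The brightest probe set gave 0.24 there (adjusted p = 0.362), and neither probe set of Slc22a6 was called on the other diets. Relative to the mean of the controls, the 2 probe sets had a correlation over the 36 arrays of 0.55 for Slc22a6, 0.74 for Slc22a8, 0.69 for Slc22a5, 0.92 for Slc22a12 and 0.97 for Slc22a26.

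**Figure D4:**
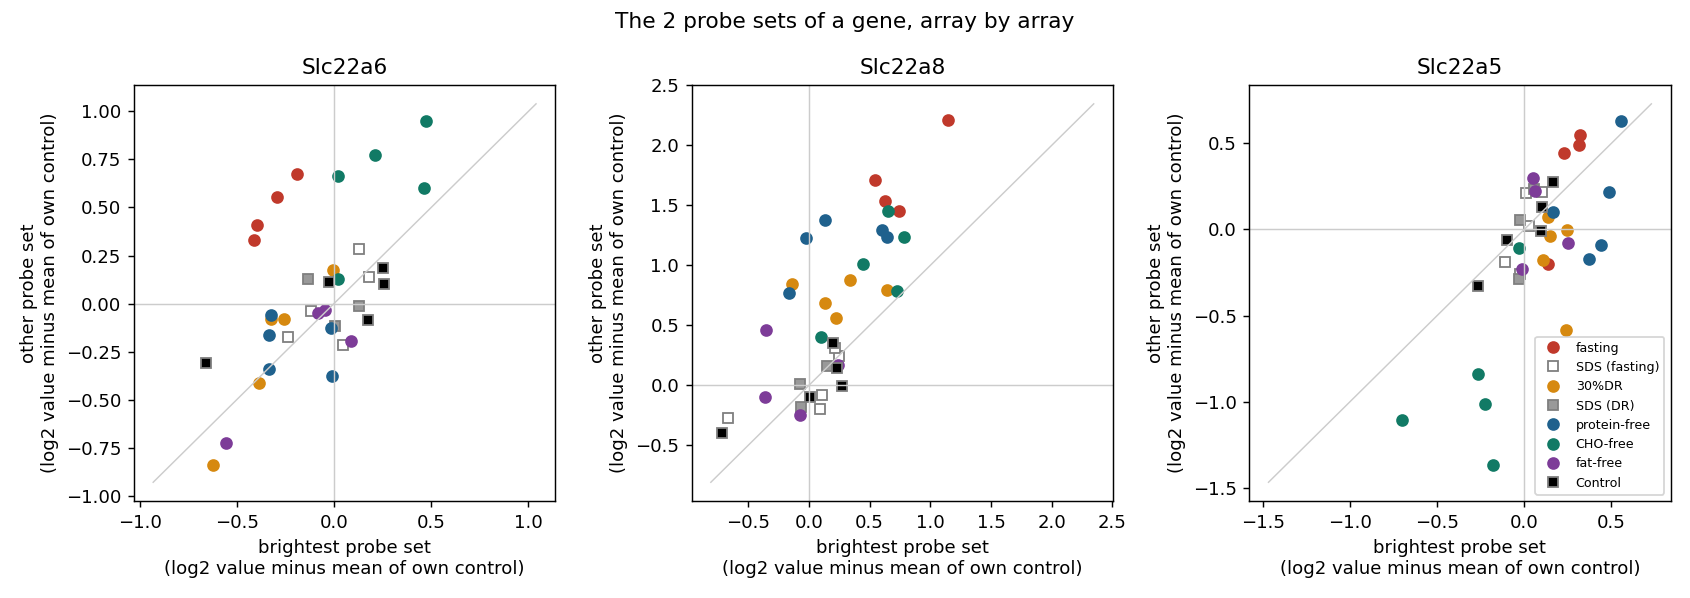
The brightest (x axis) against the other probe set (y axis) of Slc22a6, Slc22a8 and Slc22a5, as log2 RMA value minus the mean of the array's own control group. Points are arrays, squares are control groups and the grey diagonal marks equal differences. The fasted mice lie left of and above 0 in Slc22a6, and most diet mice lie above the diagonal in Slc22a8.

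Slc22a12, the gene of the urate transporter URAT1, was not called in any comparison. Its brightest probe set (1422898_PM_s_at) averaged 11.55 ± 0.05 in fasted mice (SD, n = 4) and 11.56 ± 0.14 in SDS mice (SD, n = 5). The difference of -0.011 had a 95% interval of -0.18 to 0.15. Fat-free mice had 11.31, 11.42, 11.26 and 11.08, against 11.70, 11.43, 11.68, 11.40 and 11.45 in Control mice. They lay low but overlapped with the Control mice, and the difference was -0.26 (95% interval -0.50 to -0.02, adjusted p = 0.998). On the other diets the differences of Slc22a12 were -0.19 with 30%DR, -0.09 on the protein-free and -0.16 on the CHO-free diet.

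Slc22a2 encodes OCT2, the uptake transporter for cations such as creatinine and metformin. Its probe set (1419117_PM_at) had 10.26, 10.41, 10.15 and 10.39 in fasted mice, against 10.69, 10.91, 10.94, 10.72 and 10.66 in SDS mice of that cohort. All fasted mice lay below all SDS mice, as in 8.58% of all probe sets. The difference of -0.48 (SE 0.08, adjusted p = 0.0016) stayed under the fold change of 1.5, so it was not called. The 30%DR mice, whose values are given above, overlapped with the 10.46, 10.79 and 10.75 of the SDS mice, with a difference of -0.26 (adjusted p = 0.713). On the CHO-free diet it gave 0.34 (95% interval -0.06 to 0.73), and 0.003 with the Gapdh covariate. On the protein-free diet it gave -0.12 (95% interval -0.51 to 0.28) and on the fat-free diet -0.00067 (95% interval -0.42 to 0.41).

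Slc22a5 encodes OCTN2, which couples the uptake of carnitine to sodium. Protein-free mice had 11.09, 11.28, 11.21, 11.16 and 10.89 in its brightest probe set (1450395_PM_at), CHO-free mice had 10.50, 10.69, 10.54, 10.45 and 10.02, and Control mice had 10.82, 10.63, 10.82, 10.89 and 10.46. The protein-free mice lay high and the CHO-free mice low, both with some overlap with the Control mice. The difference from Control was 0.40 on the protein-free diet (adjusted p = 0.0349, under 1.5-fold) and -0.28 on the CHO-free diet (adjusted p = 0.0724), neither of them called. The protein-free change exceeded the CHO-free change by 0.68 (SE 0.09, adjusted p = 3.88e-06), which was called, and without CHO-free mouse 5 by 0.58, just under 1.5-fold (adjusted p = 1.41e-05).

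In fasted mice Slc22a5 had 10.94, 11.02, 11.12 and 11.11, against 10.69, 10.81, 10.83, 10.77 and 10.90 in SDS mice of that cohort. The fasted mice lay just above all SDS mice, as in 8.63% of all probe sets, and the difference was 0.25 (adjusted p = 0.0177, under 1.5-fold). With 30%DR it was 0.17 (adjusted p = 0.608) and on the fat-free diet 0.09 (adjusted p = 0.998). The dimmer probe set (1421848_PM_at) fell on the CHO-free diet by 0.89 (SE 0.18, adjusted p = 0.00282), with 5.82, 6.72, 5.46, 5.99 and 5.73 in CHO-free mice, against 6.82, 6.77, 6.96, 7.11 and 6.50 in Control mice. The values of 4 of these CHO-free mice lay below all Control mice, and mouse 2 overlapped with them. With the Gapdh difference as a covariate this probe set gave -0.40 (adjusted p = 0.332). Within groups its value had a correlation of -0.63 with the Gapdh difference over the 36 arrays, given as a description.

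The order of the 6 groups of the second cohort, in the brightest probe sets, differed between the members. Slc22a6, Slc22a8 and Slc22a2 were highest on the CHO-free diet, Slc22a26 and Slc22a5 on the protein-free diet and Slc22a7 and Slc22a12 on the Control diet. The lowest group was 30%DR for Slc22a6, Slc22a7, Slc22a26 and Slc22a2, the CHO-free diet for Slc22a5 and the fat-free diet for Slc22a8 and Slc22a12. No 2 neighbouring groups in these orders differed by a called amount in any of the 7 genes. In the dimmer probe set of Slc22a8 the order was another, with the highest mean on the protein-free diet (8.04) and the lowest on the Control diet (6.86). Between the Control diet and SDS chow, the differences of the 7 genes lay between -0.34, in Slc22a26, and 0.12, in Slc22a8.

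The pattern of the 3 genes whose brightest probe set was called was set against all 17097 genes with 1 symbol, by the Pearson correlation over 36 arrays of the value minus the mean of the array's own control group. These correlations carry no test, and groups far from their controls weigh most in them. Closest to Slc22a7 were Mep1b, the gene of the brush border protease meprin beta (0.96), Slc9a8, a sodium-hydrogen exchanger (0.95), and Cndp2, a cytosolic dipeptidase (0.95). Their log2 fold changes after fasting were -1.33, -2.68 and -1.14. The most opposite were Cyp2d22, a cytochrome P450 (-0.92), and Mdrl (-0.92), with 2.50 and 2.57 after fasting. Closest to Slc22a26 was its relative Slc22a19, the gene of OAT5 (0.89), followed by Lpl, the gene of lipoprotein lipase (0.84), and Keg1 (0.79). Most opposite to Slc22a26 were Ddit4, an inhibitor of mTORC1 (-0.73), and Dtna (-0.73). Closest to Slc22a8 were Grina (0.87), Ccnd3, the gene of cyclin D3 (0.84), and Slc4a4, the sodium-bicarbonate cotransporter of the proximal tubule (0.84), and most opposite were Tasp1 (-0.84) and Tmem29 (-0.84).

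Of 18 other SLC22 genes listed, 12 were measured. Over all probe sets, 5.31% were called after fasting and 0.919% with 30%DR. The share was 0.738% on the protein-free, 3.6% on the CHO-free and 0% on the fat-free diet. After fasting 1 of 12 rose and 3 fell. Slc22a21, a carnitine transporter of the mouse, rose by 0.77, and Slc22a30, Slc22a22, a prostaglandin transporter of the mouse, and Slc22a19 fell by 1.20, 1.18 and 0.78. With 30%DR 1 of 12 was called, Slc22a19, which fell by 0.77 (adjusted p = 0.00369). Slc22a27, which lies beside Slc22a26 on chromosome 19, rose by 0.97 on the protein-free diet (adjusted p = 0.049) and fell by 1.55 on the CHO-free diet (adjusted p = 0.000348), the only call among the 12 on each of these diets. Slc22a26 and Slc22a27 thus both lay higher on the protein-free diet, while after fasting Slc22a27 was at -0.52 (adjusted p = 0.0138, under 1.5-fold) and with 30%DR at 0.65 (adjusted p = 0.36). The fat-free diet gave 0 calls of 12.

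**Figure D5:**
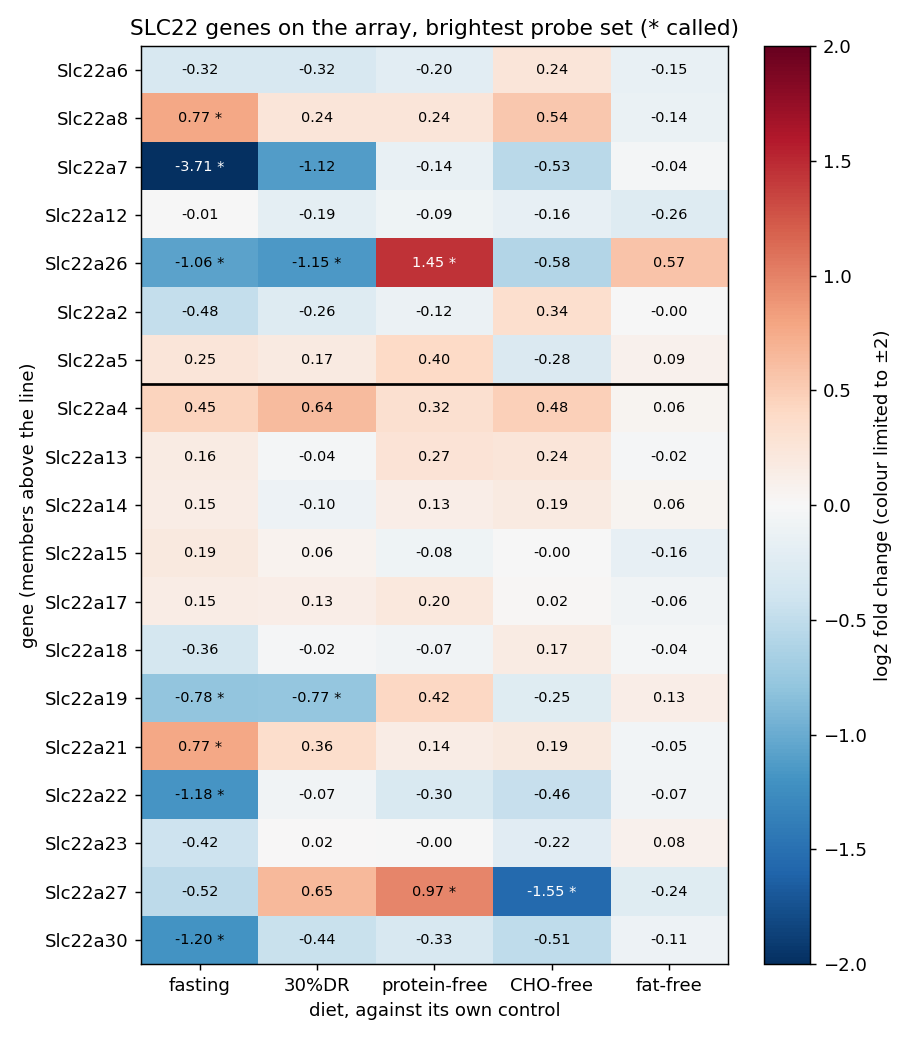
Log2 fold change (colour and printed value, colour limited to 2 in size) of 19 SLC22 genes (rows, the 7 members above the line) on 5 diets against their own controls (columns), brightest probe set of each gene. Stars mark called changes, such as Slc22a27 at 0.97 on the protein-free and -1.55 on the CHO-free diet.

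Of 20 listed other transporters of tubular secretion and of urate, 19 were measured. The share of all probe sets called was 5.31% after fasting and 0.919% with 30%DR. It was 0.738% on the protein-free, 3.6% on the CHO-free and 0% on the fat-free diet. After fasting 5 rose and 2 fell. The efflux pumps Abcc4 (MRP4) and Abcb1b (a P-glycoprotein) rose by 1.76 and 1.69, Slc13a2, a dicarboxylate and citrate cotransporter, rose by 1.20, and Slco1a6, an organic anion transporting polypeptide, fell by 0.96. With 30%DR 3 of 19 rose, Abcb1b by 0.82, the urate transporter gene Slc2a9 by 0.81 and Abcc4 by 0.80. On the protein-free diet 4 rose and 1 fell, with Abcb1b at 1.14, Slco1a1 at -0.87, Slc2a9 at 0.84 and Slco4c1 at 0.77. On the CHO-free diet 5 rose and 1 fell, with Slc13a2 at 1.48, Abcc4 at 0.99, the efflux pump gene Abcc2 at 0.86 and Abcb1b at 0.69. The fat-free diet gave 0 calls of 19. The median of the list was 0.06 after fasting, 0.20 with 30%DR, 0.26 on the protein-free, -0.04 on the CHO-free and 0.02 on the fat-free diet.

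All 12 listed genes of the carnitine pathway were measured. Among all probe sets 5.31% were called after fasting, 0.919% with 30%DR and 0.738% on the protein-free diet. The share was 3.6% on the CHO-free and 0% on the fat-free diet. After fasting 4 rose and none fell: Bbox1, which makes the last step of carnitine synthesis, by 1.66, Slc25a20, the mitochondrial carnitine-acylcarnitine carrier, by 1.18, and the carnitine palmitoyltransferases Cpt2 and Cpt1b by 0.77 and 0.73. The median of the 12 was 0.52 after fasting. On the CHO-free diet Cpt1b rose by 0.73 (adjusted p = 0.000241), and 30%DR, the protein-free and the fat-free diet gave 0 calls of 12. Of 14 listed transcription factors that act on transporter genes 11 were measured. Ppara, the fatty acid receptor, rose by 1.004 and Nr1h4, the bile acid receptor FXR, by 0.63 after fasting, and Nr1h4 rose by 0.72 on the protein-free diet (adjusted p = 0.0319), with 0 calls of 11 on the other diets.

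The mean level of the proximal tubule markers lay above that of the controls on some diets and below it on others. The median log2 fold change of the markers was 0.02 after fasting, 0.08 with 30%DR, 0.27 on the protein-free and -0.09 on the CHO-free diet. Over all probe sets, 5.31% were called after fasting and 0.919% with 30%DR. The share was 0.738% on the protein-free and 3.6% on the CHO-free diet. The mean level of the 12 markers lay between 10.2 and 10.3 in fasted mice and between 10.3 and 10.5 in SDS mice, with 0 markers called higher and 3 lower. It lay between 10.4 and 10.6 in 30%DR mice and between 10.2 and 10.4 in SDS mice, with 1 called higher, and between 10.4 and 10.6 in protein-free mice and between 10.0 and 10.4 in Control mice, with none called. In CHO-free mice it lay between 10.0 and 10.2, against the same Control mice, with 2 called lower. The mean of 9 leukocyte markers lay between 6.10 and 6.26 in fasted mice and between 6.62 and 7.00 in SDS mice, and 5 of the 9 fell. In CHO-free mice 2 of the 9 leukocyte markers and 2 of 6 markers of the thick ascending limb fell, and of 8 measured markers of the distal tubule and collecting duct 1 rose and 1 fell. After fasting 2 of those 8 fell and 1 of 4 measured markers of the glomerulus rose. None of the 3 adipocyte markers was called on any of the 5 diets. The part of these shifts in the results of the SLC22 genes was not tested.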

How the data were processed

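Kidney RNA of 36 mice was hybridised to arrays of the type Affymetrix HT MG-430 PM. The authors computed the deposited log2 values with RMA, of which no version was stated, separately for the fasting cohort (9 arrays) and the rest (27 arrays). They ranged from 2.00 to 13.9 and were used as they are. Samples were grouped by the diet in the labels, and SDS mice were assigned to a cohort by the prefix of their animal number. Gene symbols came from the platform annotation, in which 28898 of 45141 probe sets have 1 symbol, 551 several and 15692 none, and were matched by gene number to RefSeq (28689 matched, 0 symbols changed).

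Each cohort was fitted with limma 3.58.1 in R 4.3.3 (lmFit and eBayes with default settings, 1 mean per group), and differences between diets were contrasts of a fit of all 36 arrays. Calls required 1.5-fold or more and a Benjamini-Hochberg adjusted p under 0.05 among all probe sets. The fit was tested on simulated data. The Gapdh difference was compared by exact permutation (Python 3.11.15, scipy 1.17.1). Of each list, the text names up to 4 called genes a comparison with the largest change, and it names for each called member the 3 most and 2 least correlated genes. The members and lists were chosen with earlier results of these data known. The alternatives were quantile normalization, median subtraction, a filter on dim probe sets, no fold change minimum, a trended and robust prior, array weights, 2-group fits, Gapdh and adipocyte covariates, joined controls, the mean over probe sets and leaving out each array. Protein sequences were not used here. The number of arrays limits the precision.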

Additional observations from a re-analysis of the deposited data

Results flagged for a closer look

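The following values met a fixed criterion for a second look and are given without an explanation. Of 49 groups of 4 or 5 arrays, 3 held an array whose gap to its neighbour was large for the group's range, and chance gives about 1 in 20. They were the SDS mouse of the fasting cohort at 8.21 in Slc22a8, the Control mouse at 8.86 in Slc22a8 and the CHO-free mouse at 9.40 in Slc22a7. Groups of 3 were not tested for this.

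The change of a member's brightest probe set differed between diets in 12 of 70 tests in limma. Over all probe sets, the share whose change differed ran from 0.0665% for 30%DR against protein-free to 3.33% for fasting against fat-free. The differences with fasting cannot be told apart from a difference between the cohorts. Against the macronutrient-free diets, fasting and 30%DR also had another control chow, and 30%DR another duration. For Slc22a7 the change after fasting differed by -2.59 from that with 30%DR, by -3.57 from that on the protein-free, by -3.18 from that on the CHO-free and by -3.68 from that on the fat-free diet. For Slc22a26 fasting stood at -2.52 against the protein-free and -1.63 against the fat-free diet, and 30%DR at -2.60 against the protein-free and -1.71 against the fat-free diet. The protein-free change of Slc22a26 exceeded the CHO-free change by 2.04, and the CHO-free change differed from the fat-free change by -1.15. For Slc22a5 the protein-free change exceeded the CHO-free change by 0.68, and for Slc22a8 the CHO-free change exceeded the fat-free change by 0.68. The -1.71 of Slc22a26 was no longer called in 11 of 19 alternatives and the 0.68 of Slc22a8 in 8 of 11, the fit of the 27 arrays alone among them in both.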

How the results depend on the processing

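Of 275 recomputed counts 240 stayed within 1.5 times the reported count, and of 777 recomputed fold changes 730 kept their direction and their side of the threshold. Of the other fold changes 11 became called, 7 were no longer called and 29 changed sign. Without a fold change minimum 9 of 12 probe sets were called after fasting, against 19.6% of all probe sets by the same rule. With 30%DR 1 was called in a fit of the 2 groups alone and 0 with the adipocyte covariate, and on the CHO-free diet 0 with the Gapdh covariate, which left 402 calls among all probe sets. In the fit of the 27 arrays alone 0 probe sets differed between 30%DR and the fat-free diet. Leaving out each array in turn gave 0 to 4 calls with 30%DR (0 without SDS mouse 2 or 3, and 1 without 30%DR mouse 1, 3 or 5) and 2 to 6 on the CHO-free diet (6 without mouse 2). The same, added after seeing the data, gave 1 to 3 differing probe sets for fasting against 30%DR (1, with the dimmer probe set of Slc22a8 lost, without SDS mouse 1, 2 or 4 of the fasting cohort, fasted mouse 1 or 2, SDS mouse 1 or 3 of the DR cohort or 30%DR mouse 4), 2 to 4 for fasting against CHO-free (4 without Control mouse 5 or CHO-free mouse 2), 0 to 2 for 30%DR against CHO-free and 0 to 2 for 30%DR against fat-free. For the fits without 1 array the shares over all probe sets are not given here. The causes were not tested.

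Values that changed sign were not called, and the largest was that of Slc22a6 after fasting, at -0.32 (adjusted p = 0.0272 in limma). Its other probe set stood at 0.49 there. Slc22a2 gave 0.016 on the fat-free diet after quantile normalization, and on the Control diet 0.011 with the median subtracted, 0.057 with array weights, 0.13 with the Gapdh and 0.18 with the adipocyte covariate. Slc22a12 gave 0.00054 after fasting with array weights. As means over probe sets, Slc22a6 gave 0.085 after fasting and Slc22a8 gave -0.11 on the Control diet. With each array left out in turn, Slc22a12 ranged from -0.047 to 0.046 after fasting and from -0.00052 to 0.091 on the Control diet, Slc22a2 from -0.14 to 0.096 on the fat-free and -0.12 to 0.13 on the Control diet, Slc22a7 from -0.14 to 0.052 on the fat-free and -0.14 to 0.16 on the Control diet, Slc22a5 from -0.0032 to 0.11 and Slc22a6 from -0.039 to 0.19 on the Control diet. No paired analysis was possible because every array came from another mouse and no mouse was in more than a single group.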
